A study of Mus musculus with 6 samples.

Results

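The genes described here are 53 genes of NRF2 signalling, glutathione metabolism and detoxification, listed by symbol with earlier results of these data known. For each, the probe set that the platform's annotation gives to that symbol alone was taken, and where several qualified the one with the highest mean signal. This found 50 of the 53, among 19938 genes that have such a probe set, and *Prdx5*, *Prdx6* and *G6pdx* were not analysed here. They were measured in RPE dissected from C57BL/6J embryos at E15.5, on 3 arrays labelled control (Pax6loxP/loxP, both *Pax6* alleles floxed, with no Cre) and 3 arrays labelled mutant (Pax6loxP/loxP;DctCre, the same floxed alleles with a Cre transgene driven from *Dct*, a gene of pigment cells). RPE of several embryos was pooled by pigmentation intensity, each tube was 1 biological repeat, and 300 ng of total RNA from each went onto 1 Affymetrix GeneChip Mouse Gene 1.0 ST array. Controls were littermates of the mutants. The comparison asks whether the difference in *Nqo1*, a widely used marker of NRF2 activity, is shared by the other genes.

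NRF2, the product of *Nfe2l2*, is a transcription factor that KEAP1 holds in the cytoplasm and sends to the proteasome. Oxidants and electrophiles modify cysteines of KEAP1, NRF2 is then spared, and with small MAF proteins it binds antioxidant response elements of genes for quinone reduction, glutathione synthesis, the thioredoxin system, conjugation, export and NADPH supply. Much of this regulation lies in protein stability rather than in the level of *Nfe2l2* mRNA. The RPE is exposed to light and oxygen, makes melanin through reactive quinones, and is known for a high antioxidant capacity in the adult.

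The group names of the arrays are in doubt, and this bears on every sign below. Of the 100 entries in the authors' deposited table, each with a mean for either group, 79 could be matched to probe sets through their symbols and RefSeq identifiers. Both means lie within 0.1 log2 of the arrays as labelled for 0 of the 79, and for all 79 with the names of the groups exchanged. For *Nqo1* the authors' mean was 6.46 for control and 5.22 for knockout, while the arrays labelled control averaged 5.21 and those labelled mutant 6.46. The sample labels were kept, so signed values are the log2 signal of the arrays labelled mutant minus that of the arrays labelled control, and they are opposite to the study's direction. The paper reports lower *Tyr* and *Tyrp1* transcripts in the mutant, both from its arrays and by QRT-PCR. It also reports less TYR and TYRP1 protein and less pigment in the mutant RPE. In the deposited values both transcripts were higher under the mutant label, by 0.67 and 0.94 (1.59-fold and 1.91-fold), opposite to the paper. *Pax6* had 9.15, 9.02 and 9.22 in arrays labelled control against 9.00, 8.97 and 8.74 in arrays labelled mutant. The difference of -0.23 did not pass the test (adjusted p = 0.729). Cre removes only the *Pax6* exons with the start codon and the paired domain. The paper found *Pax6* transcripts without that domain in the mutant RPE. Which exons the probes of *Pax6* cover was not checked, so these values do not settle the group names. Array medians lay between 4.86 and 4.93. Of 11 RPE genes, 9 had a mean signal above the median of all probe sets, among them *Otx2* and *Mitf*, while the mature RPE genes *Rpe65* and *Best1* were below it. Of the 11, 3 were higher (*Rrh*, *Rlbp1* and *Tyrp1*, by 0.94 to 1.35) and 1 lower (*Ttr* -2.10) at an adjusted p under 0.05 in arrays labelled mutant, with a median of 0.38 and a summed level (log2) of 12.44 to 12.88 against 12.66 to 12.78. Over all probe sets tested, 0.282% were higher and 0.0812% were lower at this threshold. *Ttr*, the brightest of the 11 in arrays labelled control (mean 11.06, against 8.96 in arrays labelled mutant), weighs on their summed level. That sum is therefore no measure of equal RPE content. The part of these 11 genes in the members' values was not tested. Fewer cells of a type and less RNA per cell cannot be told apart in these pooled tissues. The precision of every value is limited by the 3 arrays per group, and p-values measure the spread between these tubes of pooled RPE.

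*Nqo1* encodes the cytosolic NAD(P)H quinone reductase, which reduces quinones by a pair of electrons and avoids the reactive semiquinone. Its log2 signal was 4.99, 5.33 and 5.31 in arrays labelled control against 6.42, 6.44 and 6.51 in arrays labelled mutant. All arrays labelled mutant lay more than 1 log2 unit above all arrays labelled control, and the former lay closer together (SD 0.05 against 0.19). The log2 difference was 1.25 with a standard error of 0.10 (95% confidence interval from 1.02 to 1.47, adjusted p = 0.00205), or 2.37-fold higher in the arrays labelled mutant. Of 23410 probe sets tested with limma, 14 had a larger positive difference. *Nqo1* passed with any 1 array left out and in 13 of 14 alternative analyses, but not by the methods' t-test (adjusted p = 0.244, the others from 3.68e-04 to 0.0201). *Nqo2*, the paralog that takes dihydronicotinamide riboside in place of NAD(P)H, had 6.64, 6.54 and 6.68 in arrays labelled control against 6.61, 6.54 and 6.73 in arrays labelled mutant. The groups overlapped, with a difference of 0.01 (95% confidence interval from -0.16 to 0.17).

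Markers of corneal and surface epithelium differed in the same direction as *Nqo1*. All 7 such genes lay above 0, against 50.0% of all probe sets. Of the 7, 1, the desmosomal cadherin *Dsg3*, passed the test, by 0.68 (against 0.282% of all probe sets higher). The keratins *Krt6a*, below the median signal, and *Krt12* differed more, by 1.11 and 1.09, but did not pass (adjusted p of 0.0526 and 0.0787). The arrays labelled mutant lay above for 4 of the 7 (57.1%, against 5.98% of all probe sets). The groups overlapped for the other 3, among them *Trp63* with a difference of 0.02. Their summed level (log2) was 11.49 to 11.78 in arrays labelled control against 11.88 to 12.23 in arrays labelled mutant, without overlap. Their part in the *Nqo1* value, and in that of the corneal gene *Aldh3a1* given further on, was not tested.

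Of the 50 members, 1 was higher at an adjusted p under 0.05 in the arrays labelled mutant (*Nqo1*), 0 were lower and 49 did not pass the test. Over all probe sets tested, 0.282% were higher and 0.0812% were lower at this threshold (0.363% in either direction). At the threshold of the paper, an unadjusted p under 0.05 with a fold of at least 1.5, 1 member was higher and 0 were lower, against 0.308% and 0.120% of all probe sets, and without control replicate 3 the 1 became 2, *Ephx1* being added at a difference of 0.59. The 95% confidence interval of each of the other 49 members ended below the interval of *Nqo1*, the highest upper bound being 0.83, for *Ephx1*. *Nqo1* was already known to pass the authors' threshold on these same arrays, so its standing apart here is no independent evidence. For 48 of the 50 the interval lay wholly within a 1.5-fold difference in either direction (96%, against 97.2% of all probe sets tested). *Nqo1* and *Ephx1* were the exceptions.

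**Figure D1:**
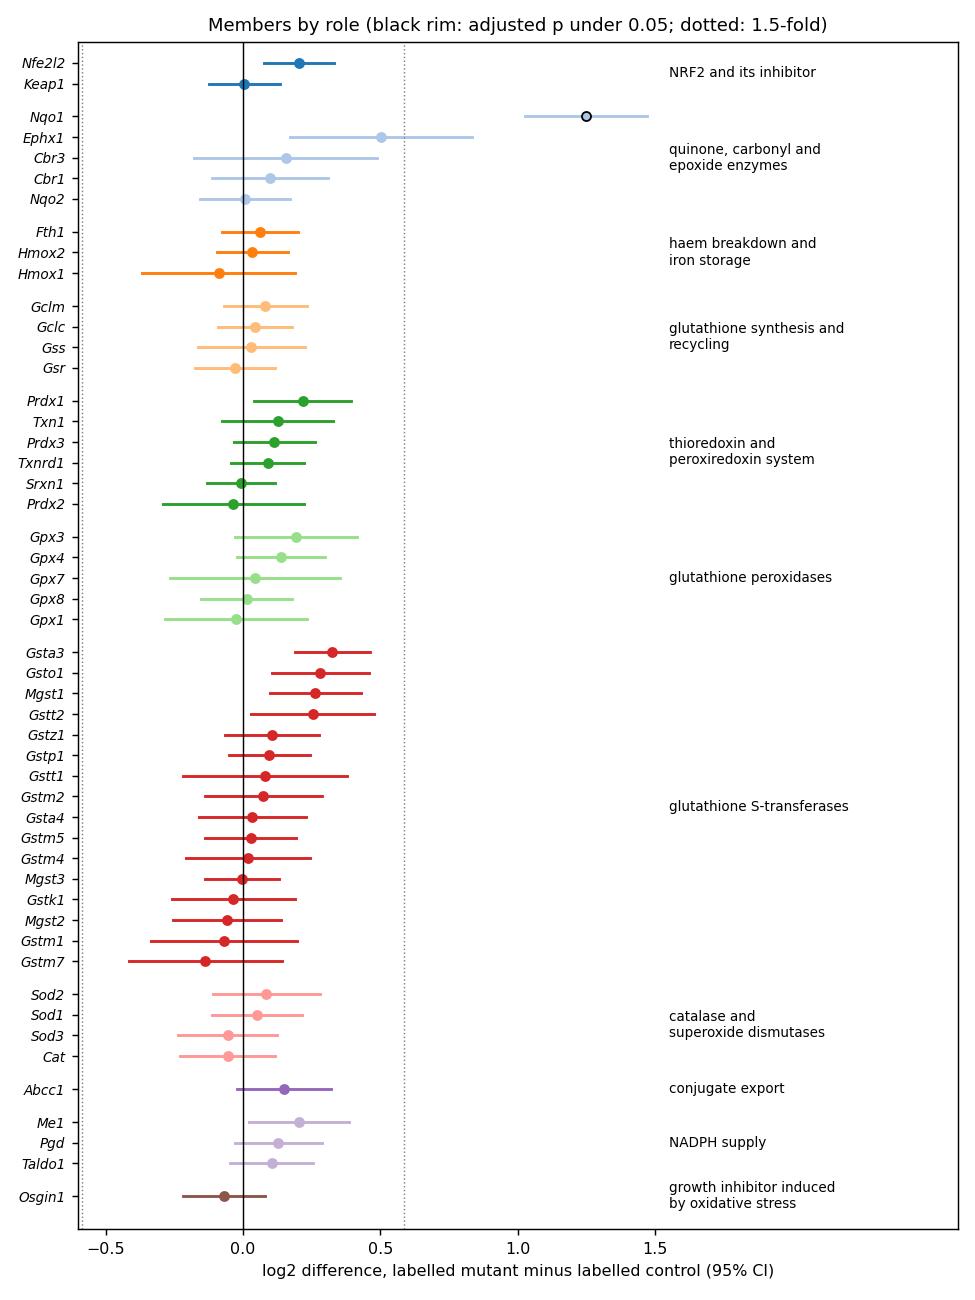
Log2 difference (arrays labelled mutant minus arrays labelled control, horizontal axis) with its 95% confidence interval for the 50 members, grouped by role, with a dotted line at 1.5-fold and a black rim for an adjusted p under 0.05. *Nqo1* stands at 1.25, *Ephx1* at 0.50, and the other 48 members lie between -0.14 and 0.33.

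Smaller differences among the members leaned one way. The median log2 difference over the 50 was 0.07, or 0.06 without *Nqo1*, against -0.0007 over all 19938 genes, and 37 of the 50 lay above 0 (74%, against 50.0% of all probe sets tested). The median was 0.03 without mutant replicate 3. An unadjusted p under 0.05 was met by 9 members, all higher in the arrays labelled mutant (18%), against 3.41% of all probe sets higher, 2.66% lower and 6.07% in either direction. Without mutant replicate 3 there were 7 (2.41% of all genes), and by the methods' t-test 5. The members are brighter than most genes, with 6% below the median signal of all probe sets against 40.0% of all genes. Without dim probe sets 9 members met this p, against 4.80% of the genes kept. The groups did not overlap for 13 members, all with the arrays labelled mutant above (26%), against 5.98% of all probe sets in that direction and 4.97% in the other. The members are listed for related functions, not all as NRF2 targets, and come from the same 6 RNA samples. They are therefore not independent, and no test over the list was made.

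*Nfe2l2* and *Keap1*, the regulator and its inhibitor, did not pass the test. *Nfe2l2* had 7.68, 7.76 and 7.74 in arrays labelled control against 7.90, 7.93 and 7.97 in arrays labelled mutant. The groups did not overlap, with 0.20 between their means (standard error 0.06, adjusted p = 0.416), or 1.15-fold. *Keap1* had 7.18, 7.21 and 7.13 against 7.18, 7.14 and 7.22, with overlapping groups and a 95% confidence interval from -0.12 to 0.13.

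**Figure D2:**
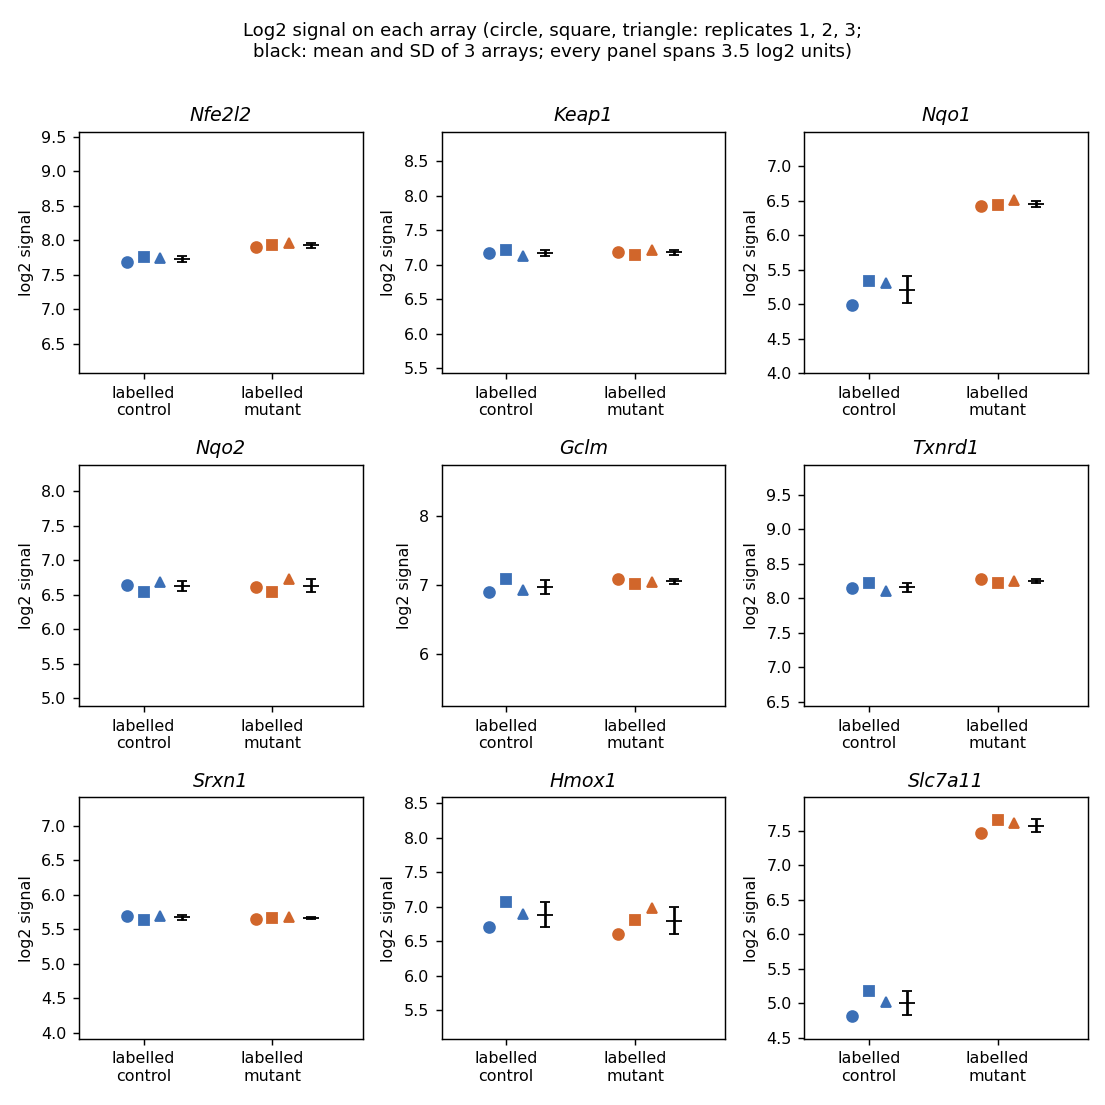
Log2 signal on each of the 6 arrays (vertical axis, 3.5 log2 units in every panel) for *Nfe2l2*, *Keap1*, 6 members that NRF2 is known to regulate or their paralogs, and *Slc7a11* from the cystine import list, with the mean and SD of the 3 arrays of each group in black. *Nqo1* and *Slc7a11* separate the groups by more than 1 log2 unit, and *Keap1*, *Nqo2*, *Gclm*, *Txnrd1*, *Srxn1* and *Hmox1* have overlapping groups.

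Promoters are shown because NRF2 is known to regulate some of the members, and the sequence lets genes with and without its element be set beside their differences. Windows of 300 bases, 250 before and 50 after a RefSeq start (GRCm38.p6), were found for 45 of the 53 listed genes. The letters TGANTCAGC, the form of the antioxidant response element that joins an AP-1 like core to its GC end, were searched on both strands and occur in 5 of the 45 genes (11.1%), against 1.37% of 27025 genes. Each is given 5′ to 3′ on the strand of its gene, with the match in capitals (its reverse complement where it lies on the other strand).
*Srxn1*, chr2:152105469-152105497, + strand: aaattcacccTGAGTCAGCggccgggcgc
*Prdx1*, chr4:116685456-116685484, + strand: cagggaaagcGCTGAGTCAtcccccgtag
*Osgin1*, chr8:119437038-119437066, + strand: aggggcccctGCTGACTCAcgcttatgaa
*Me1*, chr9:86695902-86695930, - strand: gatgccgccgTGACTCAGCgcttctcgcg
*Gstp1*, chr19:4037968-4037996, - strand: tccaacgtgtTGAGTCAGCatccggggcg

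The log2 differences of these 5 genes were -0.01 for *Srxn1*, 0.22 for *Prdx1*, -0.07 for *Osgin1*, 0.20 for *Me1* and 0.10 for *Gstp1*, and 0 of the 5 passed the test. The window of *Nqo1* holds no match to these letters, which says nothing of sequence farther away. The wider core TGACNNNGC, which overlaps the first form where the N of that form is C, occurs in 13 of the 45 genes (28.9%), against 14.0% of all. Of the 13, 12 were measured, and the groups overlapped for 6 of the 12 and did not for the other 6. The groups did not overlap for 26% of the 50 members and for 11.0% of all probe sets. A link between the letters and the differences was not tested. Shown are *Nfe2l2* itself, the transferases *Gsta3* and *Mgst1*, whose groups did not overlap, and *Gstm7*, the member with the lowest difference (-0.14), whose groups overlapped.
*Nfe2l2*, chr2:75704885-75704913, - strand: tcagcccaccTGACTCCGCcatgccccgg
*Gsta3*, chr1:21240454-21240482, + strand: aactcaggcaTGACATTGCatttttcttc
*Mgst1*, chr6:138140461-138140489, + strand: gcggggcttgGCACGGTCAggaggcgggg
*Gstm7*, chr3:107931725-107931753, - strand: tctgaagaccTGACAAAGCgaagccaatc

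The other measured genes among the 13 are *Me1*, *Pgd* and *Prdx1*, without overlap, and *Gclm*, *Txnrd1*, *Gstm5*, *Sod1* and *Srxn1*, with it. A match is a description of letters and not of binding, and no binding data were part of these arrays.

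Genes of glutathione synthesis, which NRF2 is known to regulate along with *Nqo1*, had overlapping groups throughout. *Gclc*, the catalytic subunit of the enzyme that limits glutathione synthesis, had 7.59, 7.71 and 7.61 in arrays labelled control against 7.65, 7.69 and 7.71 in arrays labelled mutant. *Gclm*, its modifier subunit, had 6.91, 7.09 and 6.94 against 7.09, 7.03 and 7.06. The differences were 0.04 (95% confidence interval from -0.09 to 0.18) and 0.08 (from -0.07 to 0.23). *Gsr*, which reduces oxidised glutathione, had 6.84, 6.91 and 6.96 against 6.93, 6.80 and 6.89. Its difference was -0.03 (from -0.17 to 0.12). *Gss*, the second enzyme of the synthesis, differed by 0.03. Of these 4 genes, 0 had an unadjusted p under 0.05.

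The thioredoxin system, which returns electrons from NADPH to oxidised proteins and peroxiredoxins, held 6 measured members, of which 0 passed the test. *Txnrd1*, the cytosolic thioredoxin reductase, had 8.16, 8.23 and 8.10 in arrays labelled control against 8.28, 8.22 and 8.25 in arrays labelled mutant. *Srxn1*, the sulfiredoxin that restores overoxidised peroxiredoxins, had 5.69, 5.63 and 5.69 against 5.64, 5.66 and 5.68. Both had overlapping groups, with differences of 0.09 and -0.01. *Prdx1*, a cytosolic peroxiredoxin, had 8.41, 8.57 and 8.32 against 8.70, 8.67 and 8.58. Its groups did not overlap by a narrow margin, the difference being 0.22 (standard error 0.08, adjusted p = 0.683), and its other probe set gave 0.19. *Txn1* and the mitochondrial *Prdx3* differed by 0.13 and 0.11. *Prdx2*, which is abundant in red cells, differed by -0.04 and by 0.01 in its other probe set. The 4 measured red cell genes had a summed level (log2) of 9.28 to 10.14 in arrays labelled control against 9.23 to 9.56 in arrays labelled mutant, and their part in the *Prdx2* signal was not tested.

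Of the haem and iron genes, *Hmox1*, the inducible haem oxygenase, had 6.70, 7.07 and 6.89 in arrays labelled control against 6.60, 6.80 and 6.99 in arrays labelled mutant. The groups overlapped, and the difference was -0.09 (95% confidence interval from -0.37 to 0.19). *Hmox2*, the constitutive form, differed by 0.03 and the ferritin heavy chain gene *Fth1* by 0.06. *Osgin1*, a growth inhibitor induced by oxidative stress, differed by -0.07.

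Among 16 glutathione S-transferases, which couple glutathione to electrophiles, 4 had an unadjusted p under 0.05 and 0 passed after adjustment. All 4 were higher in the arrays labelled mutant (25%, against 3.41% of all probe sets higher and 6.07% in either direction). *Gsta3*, an alpha class enzyme, had 5.11, 5.14 and 5.19 in arrays labelled control against 5.40, 5.50 and 5.52 in arrays labelled mutant. Its groups were clear of each other, and the difference of 0.33 (standard error 0.06, unadjusted p = 6.38e-04, adjusted p = 0.111) had the smallest p of the members after *Nqo1*. It did not pass in any of the 14 alternatives (adjusted p from 0.0736 to 0.494). *Gsto1*, an omega class enzyme, had 6.44, 6.43 and 6.58 against 6.76, 6.65 and 6.88. *Mgst1*, a membrane-bound enzyme of the endoplasmic reticulum and mitochondria, had 7.91, 7.80 and 7.99 against 8.19, 8.07 and 8.22. Both separated the groups, with differences of 0.28 (standard error 0.08, adjusted p = 0.416) and 0.26 (standard error 0.07, adjusted p = 0.412). *Gstt2*, of the theta class, had 5.15, 5.10 and 5.10 against 5.14, 5.50 and 5.46. Mutant replicate 1 lay within the range of the arrays labelled control, and the difference was 0.25 (adjusted p = 0.729).

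A pair of mu class transferases had the lowest differences among the transferases. *Gstm7* had 6.85, 6.43 and 6.76 in arrays labelled control against 6.62, 6.65 and 6.38 in arrays labelled mutant. *Gstm1* had 6.56, 6.13 and 6.41 against 6.44, 6.25 and 6.21. Both had overlapping groups, with differences of -0.14 and -0.07, and *Gstm2*, *Gstm4* and *Gstm5* differed by 0.07, 0.02 and 0.03. The mu class genes are near copies of each other, and how far their probes share targets was not checked. The remaining 7 transferases, *Gsta4*, *Gstp1*, *Gstt1*, *Gstk1*, *Gstz1*, *Mgst2* and *Mgst3*, lay between -0.06 and 0.11, each with overlapping groups.

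Of the enzymes that act beside *Nqo1* on carbonyls and epoxides, *Ephx1* had the second largest difference of the members. This microsomal epoxide hydrolase had 6.47, 6.95 and 6.99 in arrays labelled control against 7.15, 7.32 and 7.44 in arrays labelled mutant. Control replicate 1 lay well below the other arrays of its label, although the groups did not overlap. The difference of 0.50 (standard error 0.14, adjusted p = 0.474) was 0.33 without control replicate 1. The carbonyl reductases *Cbr1* and *Cbr3* differed by 0.10 and 0.15, and *Cbr3* was dim, with a mean signal below the median of all probe sets.

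The 3 measured genes of NADPH supply all had the arrays labelled mutant above those labelled control, by small amounts. Over all probe sets the groups did not overlap in that direction for 5.98%. *Me1*, the cytosolic malic enzyme, had 7.59, 7.82 and 7.80 in arrays labelled control against 7.88, 8.01 and 7.94 in arrays labelled mutant, with a difference of 0.20 (standard error 0.08, adjusted p = 0.731). *Pgd* and *Taldo1*, of the pentose phosphate pathway, differed by 0.13 and 0.10. *Abcc1*, which exports glutathione conjugates, differed by 0.15 with overlapping groups. Of the genes that remove peroxide and superoxide, 0 passed the test. Catalase (*Cat*) and the dismutases *Sod1*, *Sod2* and *Sod3* lay between -0.06 and 0.08 with overlapping groups. Of the glutathione peroxidases, *Gpx1*, *Gpx7* and *Gpx8* lay between -0.02 and 0.04, while the extracellular *Gpx3* differed by 0.19 and *Gpx4*, which reduces lipid peroxides, by 0.14. In both the groups were just clear of each other, and neither passed the test (adjusted p of 0.876 and 0.875).

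The arrays did not contribute evenly. Mutant replicate 3 had the highest of the 6 values for 20 of the 50 members (40%, against 18.1% of all genes), and control replicate 1 had the lowest for 16 (32%, against 22.7%). The median deviation of the members from their own mean was 0.06 on mutant replicate 3 and -0.08 on control replicate 1, against 0.01 and -0.01 over all genes. Marker genes of lens and neural retina were uneven on these arrays too. Mutant replicate 3 had the highest value for 5 of 7 lens genes, *Cryba1* having 7.19 there and between 3.35 and 4.86 on the other arrays. The lens genes did not move as 1, since *Cryaa* was also high on mutant replicate 1 (8.05) and *Mip* was lower in all arrays labelled mutant (5.25 to 5.57 against 5.67 to 5.95). Of the 7 lens genes 0 passed the test and 2 were below the median signal, and their summed level (log2) was 9.07 to 9.31 in arrays labelled control against 9.09 to 10.44 in arrays labelled mutant. Control replicate 1 had the highest value for all 6 measured neural retina genes and mutant replicate 3 the lowest for 4, as in *Tubb3* (7.92 and 5.63). Of these 6 genes 0 passed the test, and their summed level (log2) was 8.17 to 9.95 against 8.09 to 9.60. The part of lens and neural retina genes in the members' values was not tested. Without mutant replicate 3 the difference of *Nqo1* was 1.22.

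**Figure D3:**
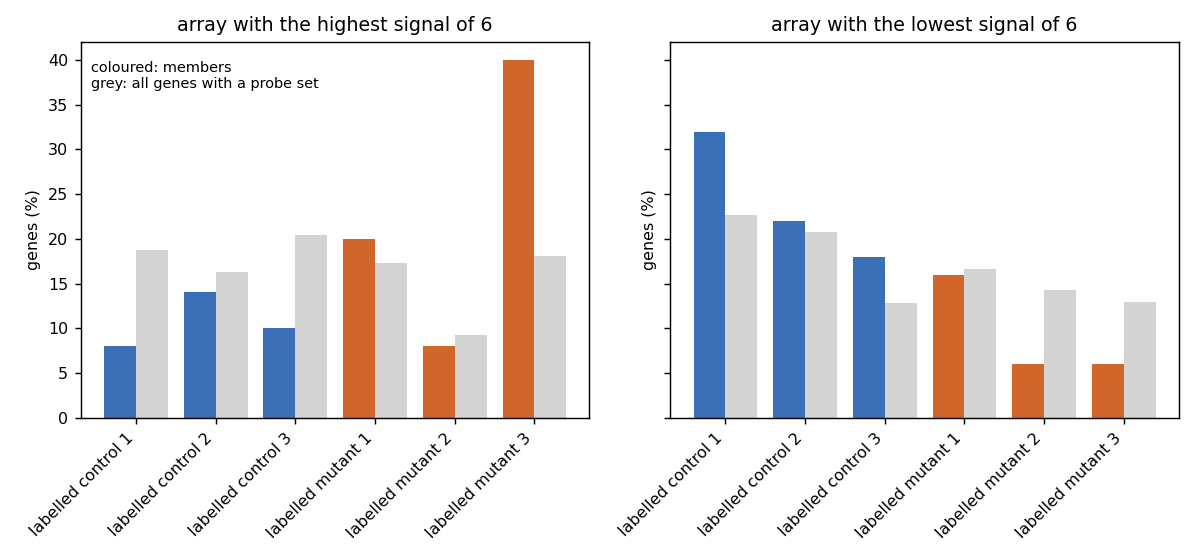
Share of genes (vertical axis, %) for which each array had the highest (left) or the lowest (right) signal of the 6, for the 50 members (coloured) and for all 19938 genes (grey). Mutant replicate 3 was highest for 40% of the members and 18.1% of all genes, and control replicate 1 was lowest for 32% and 22.7%.

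Outside the members, of 18 measured genes of cystine import and cysteine handling, 3 rose at an adjusted p under 0.05 in the arrays labelled mutant, 0 fell and 15 did not pass. The 3 are 16.7%, against 0.282% of all probe sets higher. *Slc7a11*, the cystine and glutamate exchanger that feeds glutathione synthesis, had 4.81, 5.17 and 5.01 in arrays labelled control against 7.46, 7.65 and 7.61 in arrays labelled mutant. This is a difference of 2.57 (standard error 0.10, adjusted p = 6.99e-05), above that of *Nqo1*. *Slc3a2*, the heavy chain that carries SLC7A11 to the membrane, had 9.84, 10.01 and 10.02 against 10.67, 10.67 and 10.71, or 0.73 higher on average (standard error 0.07, adjusted p = 0.00458). *Tst*, a mitochondrial thiosulfate sulfurtransferase, had 5.12, 5.07 and 5.29 against 5.85, 5.68 and 5.87, or 0.64 higher on average (standard error 0.08, adjusted p = 0.0243). *Tst* did not pass once any 1 of the 6 arrays was left out (adjusted p over the alternatives from 0.0150 to 0.436), while *Slc7a11* and *Slc3a2* passed in 13 of 14 alternatives each, the exception being the methods' t-test (adjusted p of 0.126 and 0.235). *Dpep1*, a dipeptidase that cleaves cysteinylglycine and was chosen after its values were seen, had a difference of 0.70 (standard error 0.14) and did not pass (adjusted p = 0.133). These 4 genes, *Nqo1*, and *Aldh3a1* and *Cyp1b1* given further on, are among the 100 entries past the authors' threshold on the same arrays. Their separation here is therefore no independent evidence.

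NRF2 partners and the other thiol enzymes lay close to 0. Of 14 partners, relatives and regulators of NRF2, among them the small MAF genes, the repressor *Bach1* and the KEAP1 partner *Cul3*, 0 passed the test and 0 had an unadjusted p under 0.05, with a median of -0.03. The smallest p values belonged to *Rbx1*, a subunit of the ubiquitin ligase that KEAP1 uses, with a difference of 0.12, and to *Sqstm1*, which binds KEAP1, with 0.11. Of 18 further thioredoxin, glutaredoxin, peroxiredoxin and methionine sulfoxide genes, 0 passed and 0 had an unadjusted p under 0.05, the range being -0.09 to 0.11. *Prdx4*, of the endoplasmic reticulum, and *Txnrd3* had the smallest p values, with 0.11 and 0.09. *Slc7a11* was counted with the cystine genes above and is not on the list of other described NRF2 targets, so the next count leaves it out. Of the 21 measured genes on that list, 1 rose (4.76%, against 0.282% of all probe sets higher) and 20 did not pass, with a median of 0.05. The 1 was *Aldh3a1*, the aldehyde dehydrogenase of the cornea, at 5.66, 5.06 and 5.63 in arrays labelled control against 6.61, 6.72 and 6.99 in arrays labelled mutant (difference 1.32, standard error 0.17, adjusted p = 0.0223). The call was lost when control replicate 3 or any 1 array labelled mutant was left out.

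*Nqo1* and *Aldh3a1* are also known targets of the aryl hydrocarbon receptor, a ligand-bound transcription factor that pairs with ARNT. Of 8 measured genes of that receptor, its partners and its described targets, 2 rose at an adjusted p under 0.05, *Ahrr* and *Aldh3a1*, 0 fell, and all 8 lay above 0 with a median of 0.29. The 2 are 25%, against 0.282% of all probe sets higher, and 50.0% of all probe sets lay above 0. *Ahrr*, the receptor's repressor and itself a target, was dim, at 3.47, 3.51 and 3.55 in arrays labelled control against 4.02, 4.06 and 4.17 in arrays labelled mutant. Its groups were clear of each other, with a difference of 0.57 (standard error 0.06, adjusted p = 0.00962), and the call was lost when control replicate 3, mutant replicate 2 or mutant replicate 3 was left out. The targets *Cyp1b1* and *Cyp1a1*, named here after their values were seen, differed by 0.69 (adjusted p = 0.26) and 0.39 (adjusted p = 0.136), and *Cyp1a1* was dim at 2.87 to 3.44. The remaining measured targets, *Tiparp* and *Cyp1a2*, also named after their values were seen, differed by 0.20 and 0.07 with overlapping groups. The receptor genes *Ahr* and *Arnt* differed by 0.04 and 0.05 with overlapping groups. The part of this receptor in the values of *Nqo1* and *Aldh3a1* was not tested.

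For the aryl hydrocarbon receptor the core GCGTG was searched on both strands, and it occurs in 6 of 8 listed genes with a window (75%), against 35.2% of all genes and 55.6% of the members. These 8 are not the 8 measured genes. Of the measured ones, 6 have a window and 5 of the 6 hold the core, *Ahr* and *Aldh3a1* having no window here, and the other match is in *Gsta1*, whose level was not analysed here. Windows around the core are given for *Ahrr*, *Cyp1a1* and *Cyp1b1*.
*Ahrr*, chr13:74292399-74292423, - strand: acaaggatgtGCGTGcgccctctgc
*Cyp1a1*, chr9:57697549-57697573, + strand: agataaggagGCGTGgccaacagac
*Cyp1b1*, chr17:79715123-79715147, - strand: tcccgcccctCACGCcccaccccct

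The window of *Nqo1* holds no GCGTG. So short a core is common among promoters.

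Over all 78 measured genes of these lists, 5 rose and 0 fell (6.41%, against 0.282% of all probe sets higher). *Aldh3a1*, on both the target list and the receptor list, is counted once here. The lists were written with earlier results known, and *Slc7a11*, *Slc3a2*, *Tst* and *Aldh3a1* are among the authors' entries from the same arrays. This share is therefore no independent evidence. The 5 became 2 when control replicate 3 or either of mutant replicates 2 and 3 was left out, and 3 without mutant replicate 1. They also became 2 when unnamed probe sets joined the test, and 0 in the methods' t-test once adjusted.

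**Figure D4:**
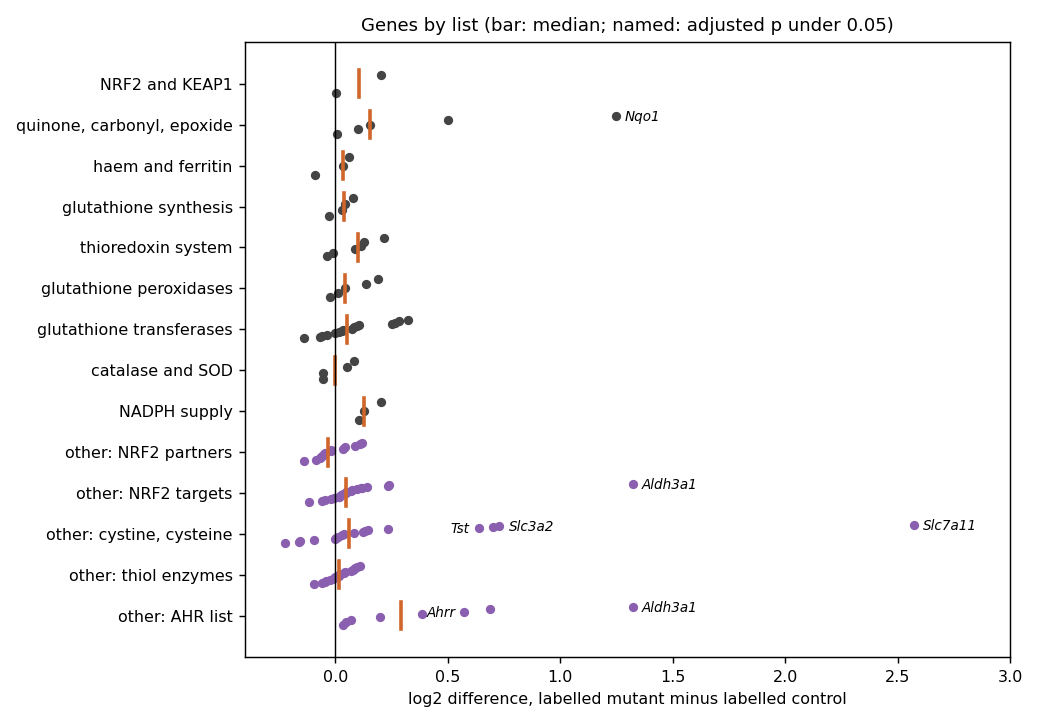
Log2 difference (arrays labelled mutant minus arrays labelled control, horizontal axis) of each gene by list, for lists of more than 1 gene, members in dark grey and other pathway genes in purple, with the median of each list as a bar and names at an adjusted p under 0.05. *Slc7a11* at 2.57, *Aldh3a1* at 1.32 and *Nqo1* at 1.25 stand apart, while the medians of the member lists shown lie between -0.0024 and 0.15.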

How the data were processed

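Gene expression of RPE at E15.5 was measured on 6 arrays, 3 per label, and the sample labels gave group and replicate number. The deposited values are log2 signals of 35556 probe sets, which the authors summarized and normalized. Partek is named in the submitters' processing notes, and its version and the background correction were not given in the sources used here. Besides, the authors' deposited table of 100 entries gives mean log2 signals of each group, which were set against the arrays, and its p-values, ratio and fold columns were not used. The number of per-sample columns left unused was 0. Platform annotation gave 23410 probe sets at least 1 symbol, of which 1621 have several, and 12146 are unnamed here.

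Labelled groups were tested by lmFit and eBayes of limma 3.58.1 (R 4.3.3) over the 23410 named probe sets, without covariates, with Benjamini-Hochberg adjustment and a threshold of 0.05. Adjusted p-values come from limma except where the t-test is named. Intervals are 95% confidence intervals of the fit. Summed levels of markers are log2 of the sum of linear signals. The fit was tested on simulated data with known changes. Members and gene lists were chosen with earlier results of these data known. Values on every array are given for members at an unadjusted p under 0.05, the 3 highest and 3 lowest differences, NRF2, KEAP1 and 8 set genes of quinone, haem, glutathione and thioredoxin metabolism. Of other lists, genes that passed the test were named, or else the 2 with the smallest p, and exceptions are marked in the text. The alternatives were all probe sets, no dim probe sets, trend and robust fitting, array weights, quantile normalization, the mean of a gene's probe sets, the t-test of the study's methods (the methods' t-test), a replicate block, and each array left out. Counts of members at an unadjusted p under the alternatives were added after the data were seen. Promoter sequences are RefSeq's (GRCm38.p6), matched by symbol.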

Additional observations from a re-analysis of the deposited data

How the results depend on the processing

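Of 266 differences of single genes (19 genes under 14 alternatives), 251 kept their direction and their side of the threshold. Of 126 values of counts and the median, 116 stayed within 1.5 times the count or, for the median, within the spread between arrays. *Nqo1* stayed between 1.13 and 1.31 with 1 array left out, and 0 other members passed under any limma alternative. The methods' t-test, which does not share the spread between genes, gave 0 members and 0 other pathway genes after adjustment and 5 members at an unadjusted p, with *Nqo1* at 1.25 (adjusted p = 0.244). Testing all probe sets, which also changes the shared spread, left 2 other pathway genes, and the cause was not tested. Leaving out 1 array gave 2 to 4 other pathway genes, 1 to 2 members higher at the paper's threshold, 7 to 10 higher and 0 to 1 lower at an unadjusted p (the 1 without control replicate 2), and a median over the members of 0.03 to 0.08. Values near 0 changed sign. *Nqo2* was -0.019 with array weights and -0.012 after quantile normalization, where *Keap1* was -0.019. With 1 array left out, *Nqo2* ran from -0.045 to 0.050, *Keap1* from -0.016 to 0.026, *Hmox1* from -0.18 to 0.0078, *Gstm1* from -0.19 to 0.027, *Gsr* from -0.059 to 0.0088 and *Srxn1* from -0.029 to 0.0028, and the cause was not tested. Deviations of same-numbered arrays correlated at 0.37, -0.06 and 0.07, and those of control replicate 2 and mutant replicate 3 at 0.37. These values cannot settle whether control and mutant tubes were matched, and the sample labels name no pairs. With a replicate block, 1 member and 62 genes were higher and 14 genes lower, and 9 members were higher at an unadjusted p. Dim genes such as *Cbr3*, *Mgst2*, *Sod3*, *Ahrr* and *Cyp1a1* lie below the median signal of all probe sets, which limits what their differences show.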
